A study of Taeniopygia guttata with 23 samples.

Results

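H3K4me3 regions of the male zebra finch auditory forebrain that carried H3K9me3 in the juvenile library, but in none of the older ones, numbered 3228. They were drawn from 14349 regions in which an H3K4me3 island was called in all 4 day 67 libraries, which makes a share of 22.5%. The 95% Wilson interval of 21.8% to 23.2% covers counting error only. It treats regions as independent, which neighbours on a shared H3K9me3 island are not, and leaves out the spread between libraries and the choice of rule. Overlapping or touching H3K4me3 islands of those 4 libraries were merged (20267 regions before the requirement of all 4). A region was kept where an H3K9me3 island of the day 32 (P32) library overlapped it and no H3K9me3 island of the 4 day 67 (P67) libraries did. The regions were therefore chosen on measured H3K4me3 and H3K9me3 calls, and H3K9me3 at them is given as a description.

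The study used chromatin immunoprecipitation sequencing (ChIP-seq) of dissected auditory forebrain from male Taeniopygia guttata for 4 targets, namely H3K4me3, H3K27me3, H3K9me3 and RNA polymerase II (Pol II). Tutored males were kept from day 21 with 1 adult of each sex, and Isolate males with 2 adult females and no adult male, both until day 67. P32 males stayed in their home flight aviaries, an experience the labels call normal. Each target had 2 Tutored, 2 Isolate and 1 P32 libraries. No genotype or drug treatment is given, and the labels do not say how many birds went into a library or whether replicates came from separate birds, so each p-value covers only how far these libraries differ, which may be technical. With 1 P32 library per target, age, housing and library cannot be told apart. The tissue is a mixture of cell types, in which fewer cells with a mark and less mark per cell cannot be told apart.

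H3K4me3 marks the starts of genes that are active or poised for transcription, and Pol II is the enzyme that transcribes them. H3K27me3 is laid down by Polycomb repressive complex 2 and often lies with H3K4me3 at silent developmental genes, a pairing called bivalent. H3K9me3 marks heterochromatin over repeats and silenced genes and is usually sparse at gene starts that carry H3K4me3. In zebra finch males the auditory forebrain processes song, and males memorise a tutor's song during a juvenile critical period.

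The deposited files are lists of islands, stretches of 200 bp windows enriched for reads, with the reads counted in each. Reads in islands came to between 1551076 and 2070288 in the P67 H3K9me3 libraries and 2133615 in P32. The P32 H3K9me3 list held 20287 islands over 73.9 Mb, within the P67 range of 19002 to 24470 islands and 60.5 to 82.8 Mb. P32 H3K4me3 had 5180553 reads in islands, against 4286003 to 11303863 in P67. Pol II lists were the most uneven, from 8589 islands in Tutored replicate 2 and 10996 in P32 to 19656 in Isolate replicate 1. Gene names and base sequence were not used here, so regions are given by the positions in the deposited files, counted from 1, and their genome build is unstated in the labels and files.

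H3K9me3 lay at more H3K4me3 regions in P32 than in any P67 library. H3K9me3 overlapped 632 of the 14349 regions in Tutored replicate 1, 817 in Tutored replicate 2, 570 in Isolate replicate 1, 604 in Isolate replicate 2 and 4244 in P32. Regions overlapped in that library alone numbered 25, 25, 11 and 16 in the same order, and 3228 in P32, which is the rule's own count. A further 320 regions had H3K9me3 in all 5 libraries, 803 in at least 1 P67 library but not all 5, and 9998 in none.

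P32 H3K9me3 lay over the centre of most of these regions. The P32 islands covered a median of 50% of a region (interquartile range 28.6% to 80%), or 1800 bp, and covered the region's central base in 64.8%. In 59.7% of the regions the main overlapping island lay wholly inside the region, and 358 regions were covered from end to end. The 3282 islands involved were 16.2% of all P32 H3K9me3 islands. They had a median length of 2.2 kb and 24.0 reads per kb, against 2.8 kb and 23.0 reads per kb for the P32 H3K9me3 islands elsewhere. They held a median of 49 reads, against 59 elsewhere, and the fewest reads of any island in the list was 15. Islands shared by neighbouring regions numbered 171 and involved 353 regions.

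**Figure D1:**
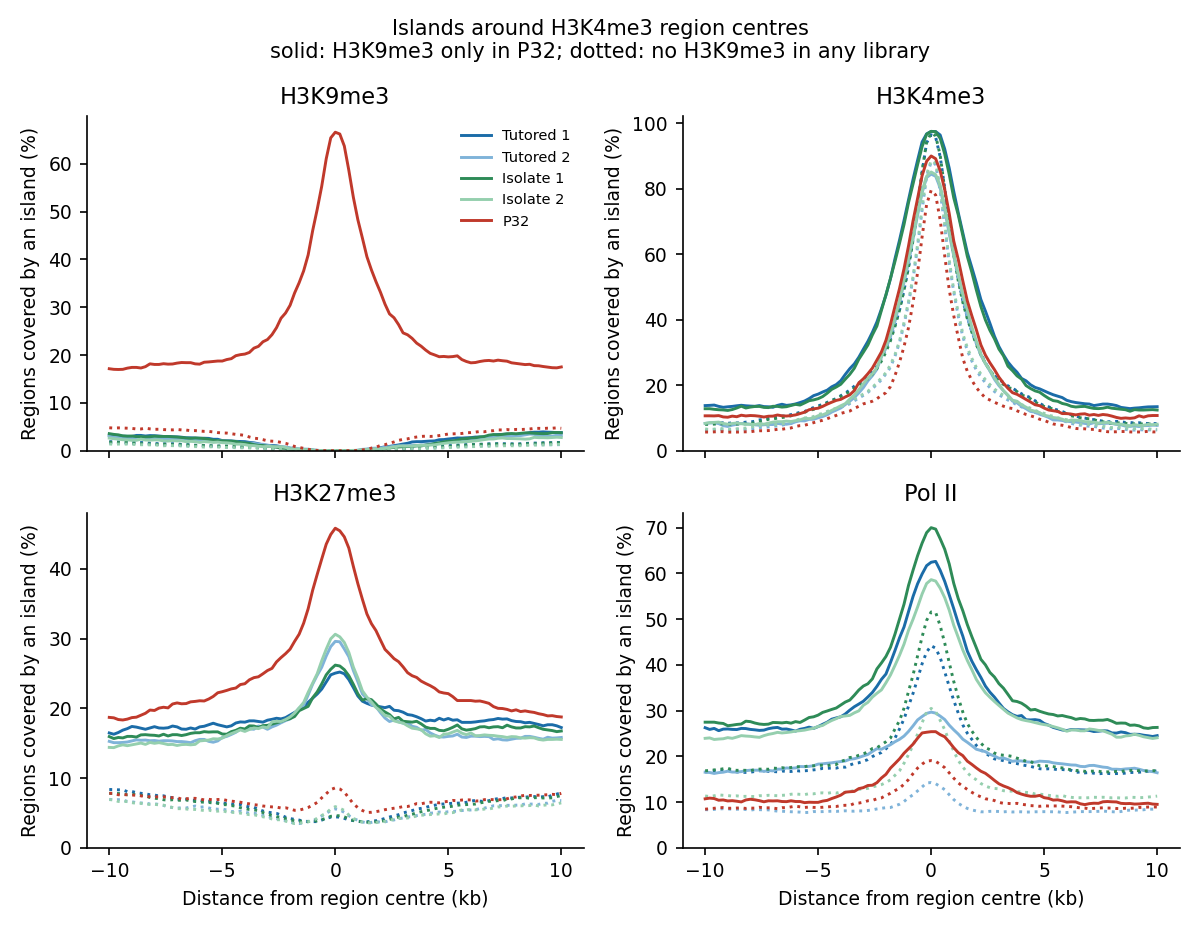
Share of regions covered by an island (%, vertical axes) against the distance from the region's centre (kb), for each target, with 1 line per library. Solid lines are the 3228 regions with H3K9me3 only in P32 and dotted lines the 9998 without H3K9me3 in any library; the H3K9me3 panel shows the rule itself, with P32 peaking at the centre and the P67 lines near 0 there.

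At the edge of the rule, 22 of the 3228 regions were included by the smallest overlap found, 200 bp. Examples were chromosome 1 at 98517201 to 98522800, chromosome 1 at 113835201 to 113839400 and chromosome 10 at 3082001 to 3086200. Just outside it, 18 of the 9998 regions without H3K9me3 touched a P32 H3K9me3 island without overlapping it, and 203 lay within 600 bp of one. Chromosome 10 at 19884201 to 19889600, chromosome 11 at 4223201 to 4232400 and chromosome 11 at 5031201 to 5035200 were among those that touched one.

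The regions with the most P32 H3K9me3 reads were long, and such a count grows with length. By reads in P32 islands lying at least 50% inside the region, the first was chromosome 5 at 8051401 to 8068400, with 614 reads. Its cover by all overlapping P32 islands was 94.1%. Next came chromosome 13 at 3454201 to 3477800 with 509 reads, chromosome 17 at 316801 to 327000 with 503, chromosome 10 at 20555801 to 20575400 with 500 and chromosome 12 at 3730601 to 3747400 with 471. All 5 were in the state with Pol II in every P67 library, and the regions on chromosomes 12 and 13 had H3K27me3 in every P67 library too. At the chromosome 5 region the overlapping Pol II islands held 3012, 3015, 3617 and 4422 reads in Tutored 1, Tutored 2, Isolate 1 and Isolate 2, and 280 in P32. At the chromosome 10 region they held 3756, 4086, 7607 and 7941 reads in that order, and 486 in P32. P32 was lowest at both, before any scaling for depth, and the P32 Pol II library held 1579718 reads in islands against 1991518 to 3780427 in P67. An island's reads were counted whole even where it ran past the region. The Isolate 1 count of 7607 was also that of chromosome 10 at 20506801 to 20534000, so these counts are not levels of the region alone.

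The longest of the 3228 regions was chromosome 23 at 3913601 to 3942600, 29.0 kb, with P32 H3K9me3 over 57.2% of it. It was followed by chromosome 10 at 20506801 to 20534000 and chromosome 22 at 64601 to 91800, both 27.2 kb, with 73.5% and 39.7% covered. Chromosome 2 at 69103801 to 69127600 (23.8 kb) had the smallest cover of the 5 longest, 6.72%, and the chromosome 13 region above (23.6 kb) had the largest, 91.5%. H3K4me3 regions with H3K9me3 only in P32 were long as a class, with a median of 4.2 kb (interquartile range 2.6 to 6.2 kb) against 2.8 kb (1.6 to 4.4 kb) for the other 11121. A longer region has more room for an overlap, so length is kept as a stratum below.

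Pol II islands lay at more of these regions than at other H3K4me3 regions in every P67 library. The share with Pol II was 73.3% in Tutored 1, 37.2% in Tutored 2, 80.0% in Isolate 1 and 71.6% in Isolate 2, against 52.2%, 19.4%, 61.4% and 42.5% of the other 11121 regions. Tutored replicate 2, with the fewest Pol II islands, was lowest in both sets. The means were 65.5% ± 19.2 and 43.9% ± 18.0 (SD, n = 4 libraries), and the difference within a library was 21.6 ± 5.14 percentage points. An exact two-sided sign-flip permutation test over the 4 libraries gave p = 0.125, the smallest it can give with 4. For the 1686 regions covered by P32 H3K9me3 over at least 50% of their length, the difference was 11.3 points. It was taken from all remaining regions, which include the less covered regions of this class. It is therefore not directly comparable with the 21.6 points against the other 11121. In P32 the shares of the full class and of the other 11121 were 34.7% and 23.3%.

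H3K27me3 was also more frequent at them. Its share was 33.9% in Tutored 1, 38.9% in Tutored 2, 34.1% in Isolate 1 and 39.5% in Isolate 2, with no overlap with the range of 14.2% to 16.0% in the other regions. The means were 36.6% ± 3.03 and 15.1% ± 0.993 (SD, n = 4 libraries). The difference was 21.5 ± 2.04 percentage points, higher in 4 of 4 libraries (exact sign-flip permutation p = 0.125, the smallest possible). Regions without H3K9me3 in any library had H3K27me3 in 7.25% ± 1.09, and regions with H3K9me3 in all 5 libraries in 87.3% ± 0.827, so the regions with H3K9me3 only in P32 lay between these 2 sets in each P67 library. For the regions covered over at least 50% the difference was 35.3 points, again from all remaining regions, less covered ones of this class included. In P32 H3K27me3 was found at 56.3% of the regions with H3K9me3 only in P32 and at 18.8% of the others.

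**Figure D2:**
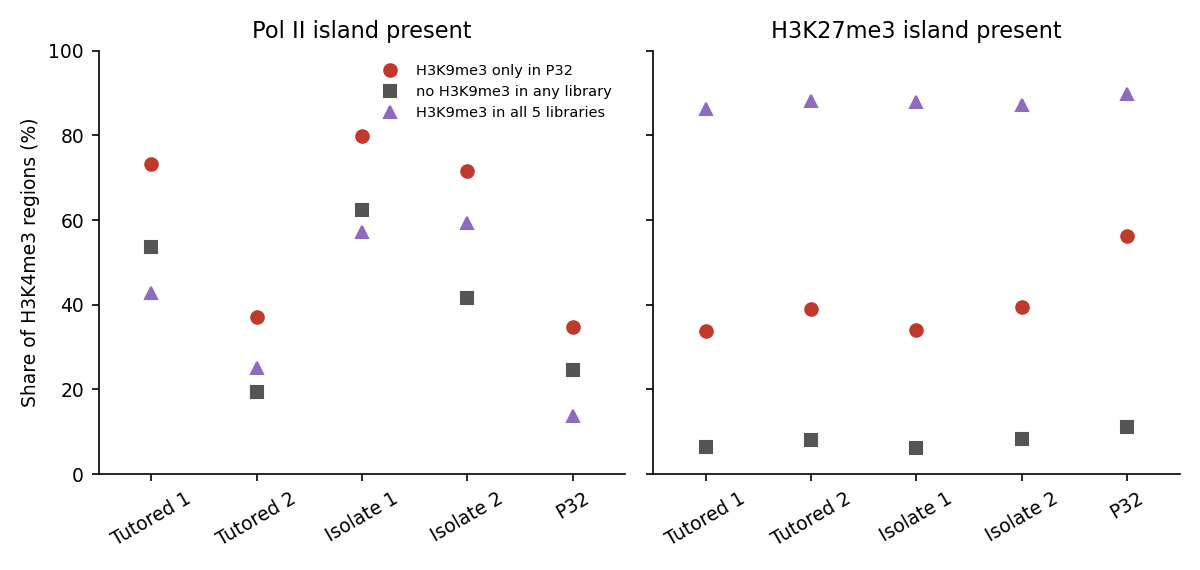
Share of H3K4me3 regions (%, vertical axis) with a Pol II island (left) or an H3K27me3 island (right) in each library, by H3K9me3 class. Circles, the regions with H3K9me3 only in P32, lie above the squares (no H3K9me3 in any library) in every library for both marks.

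Both differences were present within each of 4 length bins of similar number and each of 4 chromosome classes. The H3K27me3 share of the regions with H3K9me3 only in P32 ran from 54.6% ± 7.05 in the shortest bin (0.2 to 1.8 kb) to 28.3% ± 1.23 in the longest (5.0 to 29.0 kb), against 12.98% ± 1.80 and 16.0% ± 0.51 of the others (SD, n = 4). For Pol II the shares were 34.8% ± 13.9 and 82.9% ± 18.4, against 23.8% ± 12.4 and 68.4% ± 21.6. Both marks were more frequent in 4 of 4 libraries in each bin and class. The input reads of the P67 replicate 2 lists were higher at these regions too. H3K27me3 islands there held a median of 16.6 and 16.3 input reads per kb in Tutored and Isolate, against 15.0 and 14.6 at other H3K4me3 regions, and Pol II islands 19.7 and 18.0 against 15.6 and 15.0. The median ratio of ChIP to input reads was lower at these regions, at 4.24 and 4.43 against 5.06 and 5.09 for H3K27me3 and at 2.70 and 3.20 against 3.00 and 3.45 for Pol II. The part of input signal in the differences was not tested.

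The share of regions with H3K9me3 only in P32 differed between day 67 states. The regions with H3K9me3 in at least 1 P67 library are in these denominators but not in the counts, and most carried H3K27me3 (84.7% ± 0.528 of the 803, SD, n = 4), so the shares are not those of all P32 H3K9me3. Of 2717 regions with neither Pol II nor H3K27me3 in any P67 library, 60 (2.21%) had H3K9me3 only in P32. The share was 33.4% (843 of 2524) with Pol II in all 4 libraries and no H3K27me3, and 15.5% (859 of 5551) with Pol II in some libraries and no H3K27me3. It was 32.4% (274 of 846) with H3K27me3 in all 4 libraries and no Pol II, and 49.3% (149 of 302) with both in all 4. H3K27me3 in all 4 libraries with Pol II in some gave 43.5% (472 of 1085), and H3K27me3 in 1 to 3 libraries 43.1% (571 of 1324). Regions with neither mark stayed between 1.63% and 4.86% in each length bin. These shares describe regions of 1 genome in shared libraries and carry no test.

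**Figure D3:**
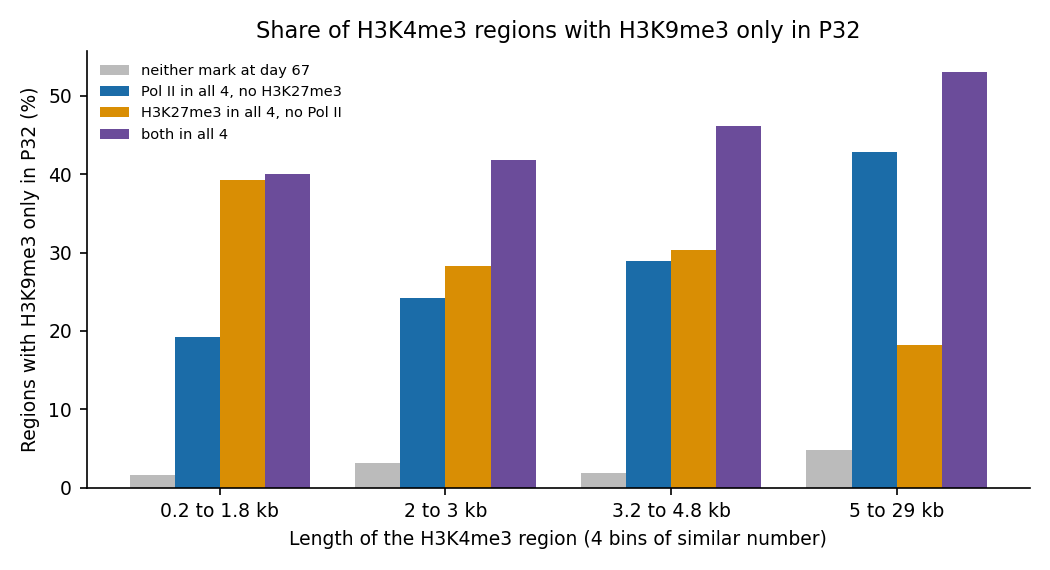
Share of H3K4me3 regions with H3K9me3 only in P32 (%, vertical axis) by bin of region length (horizontal axis, kb) and by day 67 state (bars). Bars with neither mark stay under 5% in each bin, while bars with Pol II in all 4 libraries run from 19.2% to 42.9% and those with H3K27me3 and no Pol II run from 39.2% to 18.2%.

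The share of a region that P32 H3K9me3 covered differed between day 67 states, as did region length. Where H3K27me3 was present in all 4 P67 libraries without Pol II, P32 H3K9me3 covered a median of 80% of the region (1400 bp of a median 2.0 kb) and the centre of 87.6%. Where Pol II was present in all 4 without H3K27me3, it covered 38.5% (2000 bp of 5.4 kb) and the centre of 56.1%. Where both were present it covered 83.8% (4000 bp of 5.8 kb) and the centre of 82.6%. The median main island was 2.4, 2.2 and 6.2 kb long in these 3 states. These values come from the H3K9me3 list the rule used and are a description.

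P32 also had more H3K27me3 calls. H3K27me3 was found in P32 and in none of the 4 P67 libraries at 395 regions (12.2%), against 2.90% of the others and 5.0% of all 14349. The opposite pattern, all 4 P67 libraries and not P32, was found at 2 regions (0.0620%), against 0.188% of all. Among regions without H3K27me3 in any P67 library, P32 had it at 22.4% of the 1762 with H3K9me3 only in P32 and at 3.57% of the 9030 others. Among those with it in some P67 libraries the shares were 92.6% and 60.8%. These 395 regions are shared with the class of H3K4me3 regions whose H3K27me3 was likewise found only in P32, 717 in all.

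Pol II calls in P32 were described in the same way. Pol II was present in all 4 P67 libraries and absent from the P32 list at 370 regions (11.5%), against 5.36% of the others and 6.73% of all 14349. Among regions with Pol II in all 4 P67 libraries, however, P32 had it at 68.0% of the 1155 with H3K9me3 only in P32 and at 68.6% of the 1899 others. These 1155 made 35.8% of their class, and the 1899 made 17.1% of the others. With Pol II in some P67 libraries, P32 had it at 20.3% and 20.8%, and with Pol II in none at 1.12% and 3.20%. Pol II in P32 alone was found at 5 regions (0.155%), against 0.829% of all.

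Read levels in islands were then compared between P32 and P67 with edgeR's quasi-likelihood test, fitted over all regions called in all 5 libraries, with Benjamini-Hochberg adjustment and a threshold of 0.05. H3K4me3 of 3202 of the 3228 regions could be tested, in 3180 rows, since 42 regions shared a row and 26 had no P32 island. The edgeR test called 0 of the 3180 rows, 0 of 968 rows for H3K27me3 and 0 of 844 for Pol II, with a background of 0% of all tested in each. Unadjusted p under 0.05 was found in 25.5%, 17.1% and 21.9% of the rows, against 23.1%, 10.1% and 12.5% of all tested. DESeq2 called 168 rows for H3K4me3 (116 higher and 52 lower in P32), or 5.28% of the rows against 8.24% of all tested. For H3K27me3 it called 19 (17 higher, 2 lower), or 1.96% against 2.53%. For Pol II it called 81 (1 higher, 80 lower), or 9.60% against 3.81%. Leaving out 1 P67 library left 1 group with 1 library. By edgeR there were then calls for H3K4me3 and Pol II but not for H3K27me3. Median log2 differences, P32 minus P67, were then 0.31 to 0.45 for H3K4me3 and 0.35 to 0.48 for H3K27me3. For Pol II they were -0.56 to -0.48.

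H3K4me3 levels were higher in P32 at most of these regions. The median log2 difference, P32 minus P67, was 0.36 (interquartile range -0.03 to 0.71), against -0.12 at the other H3K4me3 regions and 0.01 over all tested. P32 stood above all 4 P67 libraries at 1801 rows (56.6%), against a background of 35.5%, and below all 4 at 463 (14.6%), against 33.4%. The median was 0.27 against replicate 1 and 0.48 against replicate 2. Replicate 1 itself stood 0.16 above replicate 2 at these regions and 0.07 below it at the others (a log2 difference of -0.07). In each of the 7 day 67 states the median of the regions with H3K9me3 only in P32 lay between 0.32 and 0.41. The other regions had 0.20 where both marks were present in all 4 P67 libraries and 0.15 with H3K27me3 in all 4 and Pol II in some, and lay between -0.25 and -0.04 in the remaining states. By chromosome class it was 0.34 on chromosomes of at least 50 Mb, 0.36 from 20 to 50 Mb, 0.41 under 20 Mb and 0.18 on Z.

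H3K27me3 islands at these regions were higher in P32, with a median log2 difference of 0.40 over 968 rows, against 0.19 at 1255 rows on other H3K4me3 regions and 0.00 over all tested. P32 stood above all 4 P67 libraries in 616 rows (63.6%), against 48.5% on other H3K4me3 regions and 29.1% of all tested. It stood below all 4 in 59 rows (6.10%), against 17.5% and 27.1%. The median was 0.57 against replicate 1 and 0.31 against replicate 2. It was 0.72 where both H3K27me3 and Pol II were present in all 4 P67 libraries and 0.23 where H3K27me3 was present without Pol II, against 0.41 and 0.07 at the other H3K4me3 regions in those states.

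Pol II islands at these regions were lower in P32, with a median log2 difference of -0.54 over 844 rows, against -0.02 at 1301 rows on other H3K4me3 regions and -0.06 over all tested. P32 stood below all 4 P67 libraries in 507 rows (60.1%; background 34.1%) and above all 4 in 108 (12.8%; background 31.8%). The median was -0.48 against replicate 1 and -0.61 against replicate 2. It varied with chromosome class, at -0.22 on chromosomes of at least 50 Mb, -0.77 from 20 to 50 Mb, -0.79 under 20 Mb and 0.07 on Z. The other H3K4me3 regions gave 0.14, -0.05, -0.28 and 0.06 in that order. Only rows called in all 5 libraries enter these medians, and none of the 3 sets was called by edgeR, so the shifts are descriptions of 1 P32 library.

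**Figure D4:**
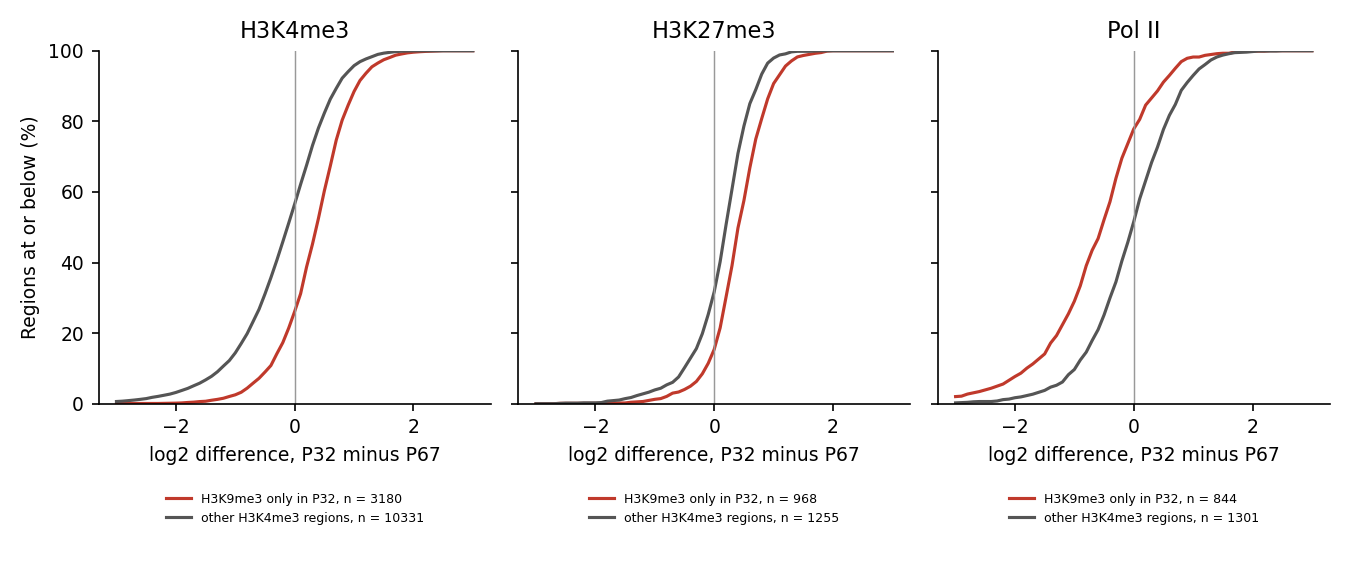
Cumulative share of rows (%, vertical axis) by log2 difference in reads, P32 minus P67 (horizontal axis), for regions with H3K9me3 only in P32 (red) and other H3K4me3 regions (grey). The red curve lies to the right for H3K4me3 (median 0.36 against -0.12) and H3K27me3 (0.40 against 0.19) and to the left for Pol II (-0.54 against -0.02).

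Single regions spanned a wide range around these medians. Chromosome 27 at 2214401 to 2216200 had the largest H3K4me3 difference in favour of P32, with CPM (reads scaled to the TMM library size) of 7.58, 5.41, 8.48 and 6.22 in Tutored 1, Tutored 2, Isolate 1 and Isolate 2 and 38.0 in P32. Its log2 difference was 2.47 ± 0.38 (SE), with an edgeR adjusted p of 0.0710. Chromosome 15 at 12997601 to 12999400 had 9.04, 8.17, 12.8 and 8.69 in that order and 48.2 in P32, a log2 difference of 2.33 ± 0.36 with the same adjusted p. Both had H3K27me3 islands in all 4 P67 libraries and Pol II in none of them. The other 3 of the 5 largest log2 differences were 2.42 at chromosome 3, 57946201 to 57946800, 2.36 at chromosome 10, 19980601 to 19982000, and 2.26 at chromosome 26, 2223401 to 2225800. P32 lay above each P67 library at all 5, and none passed the threshold.

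At the other end, chromosome 17 at 8272601 to 8287200 had 102, 37.5, 81.9 and 60.8 CPM in the P67 libraries and 4.53 in P32. Its log2 difference was -3.95 ± 0.80 (SE), with an edgeR adjusted p of 0.0885. H3K27me3 was called there in P32 alone, with 1200 reads in the overlapping islands. Chromosome 4 at 32680401 to 32695000 had 211, 345, 207 and 366 CPM and 36.0 in P32, a log2 difference of -2.97 ± 0.52. The log2 differences at chromosome 19 at 6676801 to 6681000, chromosome 7 at 11597201 to 11601000 and chromosome 8 at 22816001 to 22820400 were -2.20, -2.11 and -2.0. P32 lay below each P67 library at all 5.

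At day 67 the level of H3K4me3 itself differed from that of other regions mainly in replicate 1. The median density was 18.6 CPM per kb in Tutored 1, 16.0 in Tutored 2, 18.6 in Isolate 1 and 16.0 in Isolate 2, here scaled to all reads in the islands of the library. The other regions had 14.8, 15.9, 15.2 and 15.7 in the same order, so the sets lay further apart in both replicate 1 libraries than in both replicate 2 libraries. Reads are recorded only inside islands. In Tutored 2 and Isolate 2, islands covered at least 50% of 76.1% and 77.6% of these regions, against 84.2% and 85.5% of the others. In Tutored 1 and Isolate 1 the shares were 98.9% and 98.3%, against 97.4% and 96.8%. The part of island width in the density differences was not tested. The mean was 17.3 ± 1.49 against 15.4 ± 0.52 in the other regions (SD, n = 4), a difference of 1.91 ± 1.99 that was positive in 4 of 4 libraries (exact sign-flip permutation p = 0.125). In P32 the values were 22.4 against 13.9. P32 islands were counted whole, while the regions were drawn from P67 islands alone. A P32 island that runs past a region raises its value, so these 2 values are not comparable with the P67 densities. Against the regions without H3K9me3 in any library (16.2 ± 0.553) the P67 density was higher in 2 of 4 libraries (exact permutation p = 0.5). Among the 1686 regions that P32 H3K9me3 covered by at least 50%, the density minus that of all remaining regions was -3.46 CPM per kb. The remaining regions here include the less covered regions of this class.

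Tutored and Isolate males were compared at the same regions. edgeR called 0 of 3228 regions for H3K4me3, 0 of 945 rows for H3K27me3 and 0 of 1098 for Pol II, with a background of 0% in each. Unadjusted p under 0.05 was found in 2, 4 and 10 rows (0.0620%, 0.423% and 0.911%), against 0.0627%, 0.697% and 1.19% of all tested. DESeq2 called 0, 0 and 1, the last against a background of 0.0192%. For Pol II the median log2 difference, Isolate minus Tutored, was 0.10 in replicate 1 and 0.16 in replicate 2. At the 4111 other Pol II rows it was -0.01 and -0.06. Those rows were not limited to H3K4me3 regions, and other H3K4me3 regions were not set apart here. At the regions with H3K9me3 only in P32, the difference is described further. It was above 0 in both replicates in 575 rows of this class (52.4%), against 31.3% of all tested. The medians for H3K4me3 were -0.01 and 0.00, and for H3K27me3 0.02 and 0.02. In calls, Pol II was found in both Isolate and neither Tutored library at 114 regions (3.53%), near the background of 3.31%. It was found in both Tutored and neither Isolate at 1 region (0.0310%; background 0.0697%). For H3K27me3 the counts were 8 (0.248%; background 0.16%) and 12 (0.372%; background 0.181%). The shorter Pol II list of Tutored replicate 2 bears on these Pol II calls, and its part was not tested.

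These regions made a larger share of H3K4me3 regions on small chromosomes. They made 18.8% of H3K4me3 regions on the 6 chromosomes of at least 50 Mb and 21.8% on the 8 of 20 to 50 Mb. The share was 29.9% on those under 20 Mb and 22.1% on Z. Over the 30 chromosomes with at least 50 H3K4me3 regions, the share ran from 15.6% on chromosome 6 to 43.1% on chromosome 26. Across those 30 chromosomes it had a Spearman rho of -0.83 with length and of 0.89 with the percent of the chromosome covered by P32 H3K9me3. These points share 1 library, and the second relation uses the list that chose the regions. On chromosome 26 P32 H3K9me3 covered 31.4% of the chromosome, against 7.61% to 10.3% in the P67 libraries, and on chromosome 6 it covered 6.69%, against 5.96% to 7.76%.

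**Figure D5:**
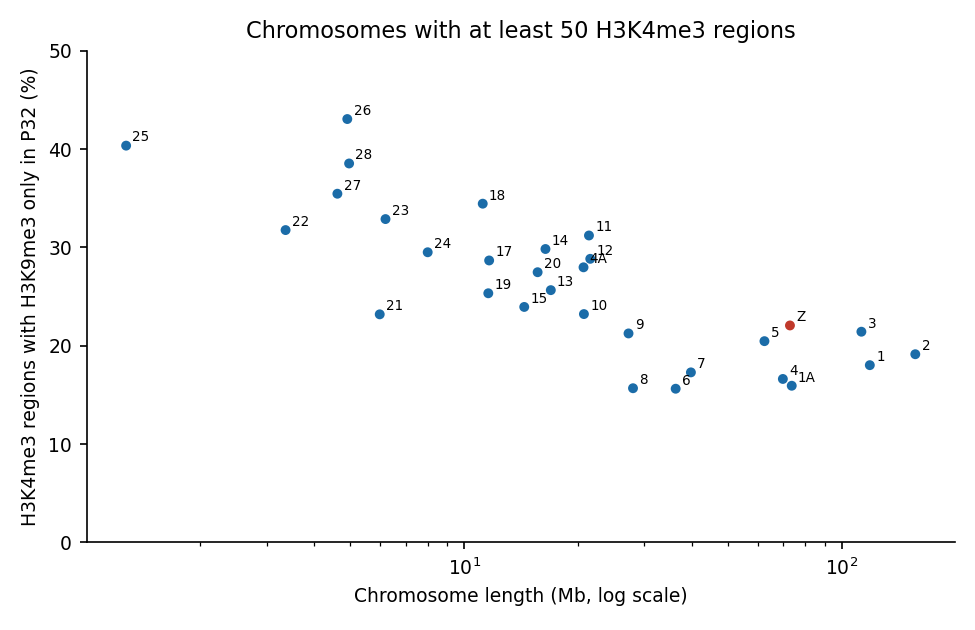
Share of H3K4me3 regions with H3K9me3 only in P32 (%, vertical axis) against chromosome length (Mb, logarithmic axis), for the 30 chromosomes with at least 50 H3K4me3 regions (Z in red). The share runs from 15.6% on chromosome 6 to 43.1% on chromosome 26.

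Some of the regions lay next to one another. Of 2159 runs of consecutive regions, 1533 held a single region. Next along the chromosome came a region with H3K9me3 only in P32 after 33.2% of this class and 19.4% of the other H3K4me3 regions. The 171 islands shared by neighbouring regions, which involve 353 regions, bear on these values, as do the unequal shares between chromosomes. Their part was not tested. Runs of 5 or more numbered 52 and held 321 regions. The longest had 14 in a row on chromosome 11 between 11616601 and 12166800 (550 kb), of which 7 had Pol II in all 4 P67 libraries and 3 had H3K27me3 in all 4. A run of 10 lay on chromosome 18 between 1463201 and 1598000. A run of 9 on chromosome 10 between 20477401 and 20604000 held both chromosome 10 regions named for length and for H3K9me3 reads, and 8 of its 9 regions had Pol II in all 4 P67 libraries. The nearest P67 H3K9me3 island was a median of 29.6 kb away, against 47.0 kb for regions without H3K9me3 in any library, and within 1000 bp of 162 regions (5.02%), against 132 (1.32%). The runs and distances come from the H3K9me3 lists the rule used and are a description.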

How the data were processed

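Island lists of 20 libraries were used, and the 3 input samples were not analysed here. Per the submitters' processing notes BWA 0.6.1, SICER 1.1 and MACS were used. The deposited file names give windows of 200 bp, gaps of 200 bp (H3K4me3) or 600 bp (other targets) and a false discovery rate of 1E-5, so a region without an island has no recorded reads. The authors deposited a read count per island. The deposited replicate 2 lists for H3K27me3, H3K9me3 and Pol II add input counts, a p-value, a fold ratio over input and a q-value, of which only input counts were used. Groups follow the sample titles. The names of the H3K4me3 replicate 1 files carry the other group's letter, which does not affect the choice of regions. The names of the Pol II replicate 1 files carry the number of the other replicate. The design text of the series gives day 65 where the sample labels give day 67, and the labels were followed.

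An overlap of 1 bp counted. Region counts (the sum over islands of the same target) were tested with edgeR 4.0.16 (TMM, robust quasi-likelihood, R 4.3.3), with P32 spread taken from the P67 libraries and no replicate block, and with DESeq2 1.42.0 as an alternative. The test was also run on data simulated with independent libraries and 1 common spread. That setting lacks the shared deviation of same-numbered libraries given below, so it cannot vouch for the test here. Shares were compared by exact sign-flip permutation over libraries. Chromosome length was the highest island end. The regions, lists and tests were chosen with earlier results of these data known. Regions were named by length (5), P32 H3K9me3 reads (5), largest and smallest H3K4me3 difference (5 each) and position at the edge of the rule (3 inside, 3 outside).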

Additional observations from a re-analysis of the deposited data

How the results depend on the processing

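The number of regions with H3K9me3 only in P32 was 3228. It fell to 1686 when P32 islands had to cover at least 50% of the region, and to 1633 with P32 islands of at least 50 reads, a choice made after seeing the data. It was 3097 with no P67 H3K9me3 island less than 1000 bp away, a gap of exactly 1000 bp being allowed. It was 3151 with the same number of H3K9me3 islands per library and 3202 with H3K4me3 also called in P32. With 1 P67 library left out it was 3292 to 3454. With at least 50% covered, the difference from all remaining H3K4me3 regions was 11.3 percentage points for Pol II and 35.3 for H3K27me3. The H3K4me3 difference, taken the same way, reversed to -3.46 CPM per kb. The remaining regions then include the less covered regions of this class, so the comparison set changed too. The cause was not tested. Counting only H3K27me3 islands that cover at least 50% of the region gave 14.9 percentage points. On chromosomes of at least 50 Mb alone, here with Z included, the H3K4me3 difference was 4.46 CPM per kb. On chromosomes under 20 Mb alone it was 0.30 CPM per kb. Leaving out 1 library gave 19.2 to 22.9 points for Pol II, 20.8 to 22.1 for H3K27me3 and 1.26 to 2.49 CPM per kb.

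For P32 against P67, DESeq2 called 168 (H3K4me3), 19 (H3K27me3) and 81 (Pol II) rows where edgeR called 0, and leaving out 1 library gave 112 to 329, 0 and 27 to 80. With 1 library left out, the share called for H3K4me3 was below that of all tested rows in most fits but not all. For Pol II it was above that of all tested rows in each fit. Such fits leave 1 group with 1 library, so their counts are not read as a result about these regions. H3K27me3 had 1 call, lower in P32, with regions called in at least 2 libraries. That was 0.0701% of 1427 rows, against 1.38% of all tested (328 of 23808). For Isolate against Tutored, Pol II had 1 call by DESeq2 and 0 to 7 with 1 library left out. Without Tutored replicate 1 the share called was above that of all tested rows, and without Isolate replicate 1 it was below. These fits too leave 1 group with 1 library, so their counts are not read as a result. The replicate block gave 0 calls for each mark. Unadjusted p under 0.05 was then found in 119 (H3K4me3), 36 (H3K27me3) and 58 (Pol II) rows. These were 3.69%, 3.81% and 5.28%, against 3.55%, 4.85% and 5.09% of all tested. Same-numbered libraries deviated together (r across regions of 0.786, 0.612 and 0.623 in H3K4me3, H3K27me3 and Pol II). Exchanging the groups of H3K4me3 replicate 1, also chosen after seeing the data, gave 0. A single P32 library and uneven Pol II lists limit each statement on age.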
